A study of Mus musculus with 22 samples.

Results

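The comparison described here is between CD44High and CD44Neg cells of the aorta-gonad-mesonephros (AGM) region at E11, and it rests on 6 of the 22 bulk RNA-seq libraries of the study. They are the 3 CD44High libraries, numbered 20, 21 and 22 in the sample labels, and the 3 CD44Neg libraries of the same stage, numbered 1, 2 and 3. The libraries were chosen by their labels for population, stage and date, and not by any measured value, although earlier results of these data were known. In the study, VE-Cadherin-positive cells of C57BL/6 mouse embryos were sorted by their surface CD44 and Kit into 4 populations, 25 cells per library. Their RNA was amplified by the SMART-Seq2 protocol and the question was how the transcriptomes of these populations differ along the path from endothelium to blood. All embryos were wild type, no treatment was given, and the labels call the CD44Neg cells endothelial cells and the CD44High cells HSPCs, that is, haematopoietic stem and progenitor cells. The titles of the CD44High libraries carry the letters KG, which those of the CD44Neg libraries lack, and their meaning is not given in the sources used here. The number of embryos behind each library is likewise not given, so the spread between the 3 libraries of a group may be partly technical.

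The AGM holds the embryonic dorsal aorta, where endothelial cells with haemogenic potential turn into blood cells and bud into the vessel (the endothelial to haematopoietic transition). VE-Cadherin, the product of *Cdh5*, is the adhesion protein that holds endothelial cells together, and emerging blood cells keep it on the surface for a time. CD44 is a receptor for hyaluronan, a sugar polymer of the extracellular matrix, and Kit is the receptor for stem cell factor. The transcription factor Runx1 is needed for the transition, and Gfi1 and Gfi1b switch off endothelial genes while it takes place. Macrophages of the embryo arise mainly from an earlier wave of blood formation in the yolk sac and spread into tissues, the AGM among them.

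Between 4385865 and 5974244 reads were counted in the CD44High libraries and between 3912350 and 6652450 in the CD44Neg libraries. A count above 0 was found for 11581 to 12295 genes in CD44High and for 11868 to 11993 in CD44Neg. Counts of *Rn45s*, the precursor of ribosomal RNA, made up 16.6% to 23.9% of the counts in CD44High and 15.2% to 17.9% in CD44Neg. Levels are given as normalized CPM, which is the CPM scale (counts per 1000000 counted reads) with library sizes scaled by the TMM method, and are listed for replicates 20, 21 and 22 of CD44High and for replicates 1, 2 and 3 of CD44Neg in that order. They are not divided by gene length, so levels were not compared between genes. Where a gene had 0 counts, up to 3 remain possible in the library, or 0.550 to 0.716 normalized CPM in CD44High and 0.439 to 0.734 in CD44Neg, which covers counting error only because the reads carry no molecular identifiers. Set against counting error alone, the chi-square of 2 replicates per degree of freedom was 35.8 to 79.5 in CD44High and 17.6 to 27.6 in CD44Neg, so the spread between replicates was well above it, and wider in CD44High than in CD44Neg.

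Of 24454 genes in the table, 10933 passed the filter on low counts and were tested with the quasi-likelihood test of edgeR, with p-values adjusted by Benjamini and Hochberg. A gene was called at an adjusted p under 0.01, and the p printed below is this adjusted p from edgeR. The SE printed with a fold change is the absolute log2 fold change over the square root of the test's F statistic. It is not a fitted standard error, and for genes near 0 counts in a group it can understate the counting error. In all, 1055 genes were called, or 9.65% of those tested, and 473 of them (4.33%) were higher and 582 (5.32%) lower in CD44High. All 1055 called genes had groups that did not overlap, and in all 4446 genes, or 40.7% of those tested, had such groups. The differences were large, with a median absolute log2 fold change of 6.56 over the called genes (4.83 with genes at 0 in a whole group at their lower bound), and 797 of them exceeded 3 on the log2 scale. Over all genes tested the median log2 fold change was 0.03. Many genes were found in 1 population only at this depth: 243 of the genes called higher had 0 counts in every CD44Neg library, and 156 of those called lower had 0 counts in every CD44High library. For such genes the fold is given as a lower bound, against 3 counts in each library of the group at 0. Such genes pass the filter through the group that holds them, so counts over a gene list describe these libraries and were not tested as a list. Without 1 of the CD44Neg libraries the number of called genes fell to between 436 and 498, and without 1 of the CD44High libraries it was 813 to 1058.

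**Figure D1:**
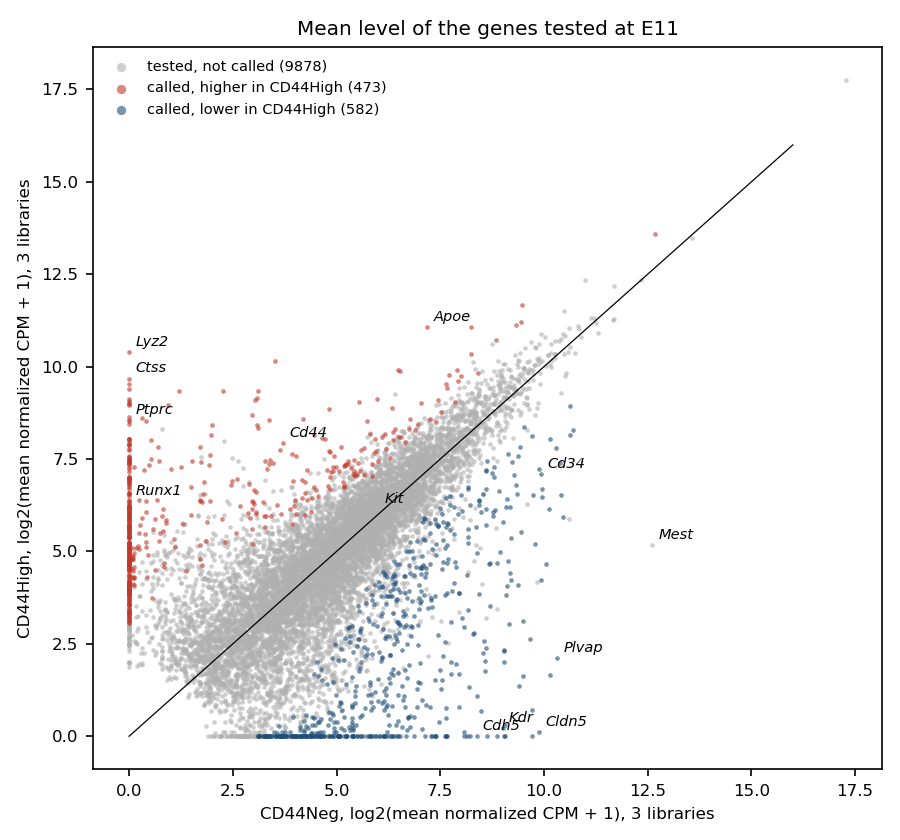
Each point is 1 of the 10933 genes tested, with its mean level in the 3 CD44Neg libraries on the x axis and in the 3 CD44High libraries on the y axis, both as log2(mean normalized CPM + 1). The 473 genes called higher (red) and the 582 called lower (blue) reach the axes themselves, where 1 of the populations had 0 counts, and *Kit* sits on the line of equal level.

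The sort used surface protein, and the transcripts of the sorting genes were checked first. *Cd44* was at 315, 261 and 149.5 normalized CPM in CD44High and at 13.5, 1.99 and 20.6 in CD44Neg. The lowest CD44High library held more than the highest CD44Neg library, and the means were 242 ± 84.6 and 12.03 ± 9.40 (SD, n = 3 each), with log2 fold change 4.32, SE 0.73, adjusted p = 0.00412. *Kit* was at 111, 61.1 and 34.5 in CD44High and at 49.7, 61.4 and 78.4 in CD44Neg. Its groups overlapped and its log2 fold change was 0.13 (SE 0.44, adjusted p = 0.882). In the study, Kit split only the CD44Low cells, and neither group compared here was named by it. *Cdh5* had 0 counts in every CD44High library, which allows up to 0.716 normalized CPM, and was at 237, 341 and 416 in CD44Neg. The transcript of the protein used to gate all of these cells was thus at least 502-fold lower in CD44High (adjusted p = 0.000113). The call for *Cd44* was lost without CD44High replicate 20 or CD44Neg replicate 1 or 3 (adjusted p = 0.01002 to 0.0285).

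Among called genes, the gap between the lowest library of the higher group and the highest library of the lower group singles out transcripts that separated the populations most cleanly. The 12 widest gaps on the CD44High side belonged to *Ctss*, *Lyz2*, *Tyrobp*, *Cx3cr1*, *Rac2*, *Ptprc*, *Hpgds*, *Ly86*, *C1qc*, *Ms4a6b*, *C1qb* and *Ccr1*, and all 12 had 0 counts in every CD44Neg library. *Ctss*, which encodes the lysosomal protease cathepsin S, was at 593, 1179.9 and 683 normalized CPM in CD44High, or at least 1431-fold above CD44Neg (adjusted p = 0.000106). *Hpgds*, which encodes haematopoietic prostaglandin D synthase, was at 326, 734 and 448 (at least 879-fold, adjusted p = 0.000127). *Ptprc*, which encodes the pan-leukocyte phosphatase CD45, was at 402, 385 and 332 (at least 652-fold, adjusted p = 6.93e-05). Each of these 3 genes was present in every CD44High library and in none of the CD44Neg libraries, and *Ptprc* varied least between the CD44High replicates.

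On the CD44Neg side the 12 widest gaps belonged to *Tmem255a*, *Cldn5*, *Gja4*, *Sox18*, *S100a16*, *Kdr*, *Sox7*, *Ramp2*, *Cdh5*, *Igfbp3*, *Adgrf5* and *Plvap*. *Cldn5*, which encodes the endothelial tight junction protein claudin-5, was at 938, 1072 and 823 normalized CPM in CD44Neg and at 0, 0.239 and 0 in CD44High (log2 fold change -13.24, SE 0.53, adjusted p = 2.74e-05). *Gja4*, which encodes the arterial gap junction protein connexin 37, was at 472, 597 and 511 in CD44Neg and at 0 in every CD44High library (at least 799-fold lower, adjusted p = 6.93e-05). *Plvap*, which encodes the protein of endothelial diaphragms, was at 1195, 1163 and 1454 in CD44Neg and at 0.734, 5.01 and 4.28 in CD44High (log2 fold change -8.60, SE 0.60, adjusted p = 0.000113). These genes were high in all CD44Neg libraries and at or close to 0 in all CD44High libraries.

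**Figure D2:**
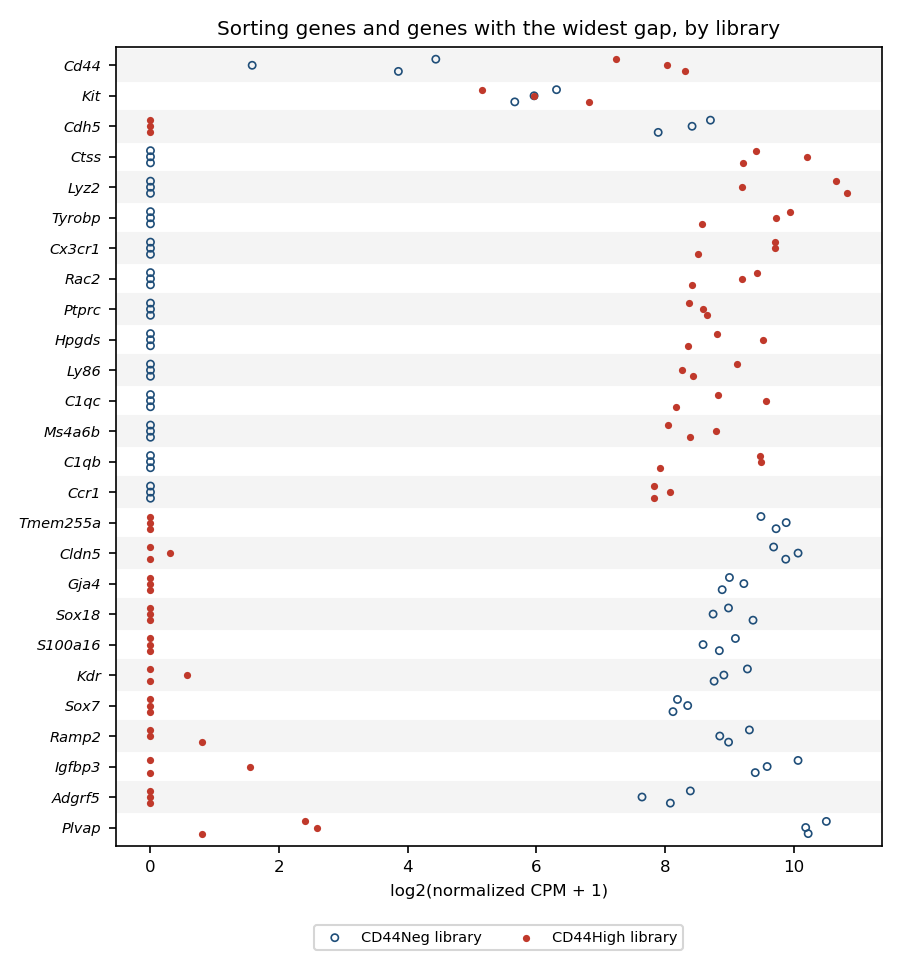
Points are single libraries (filled for CD44High, open for CD44Neg) on an axis of log2(normalized CPM + 1), for the 3 sorting genes and the other genes with the widest gaps. All CD44Neg points lie at 0 for the 12 genes from *Ctss* to *Ccr1*, the *Kit* points of the populations overlap, and the *Cdh5* points of CD44High lie at 0.

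The RefSeq promoter windows of these genes (build GRCm38, 250 bases before to 50 bases after the start, 1 window per gene, the first listed) were searched on both strands for 4 short motifs chosen after the values were seen. The windows were matched by symbol, and 359 of the 473 genes called higher, 412 of the 582 called lower and 10 of the 12 genes with the widest gap on the CD44High side had one. GAGGAAGT, a motif of the kind bound by the blood factor PU.1, was in 8.08% of the windows of genes called higher, 3.16% of those called lower, 2.95% of those tested and not called and 3.28% of all 27025 windows. TGTGGT, the core bound by RUNX factors, was in 20.9%, 11.9%, 11.98% and 16.9% in the same order. AGATAA, a core bound by GATA factors, was in 10.9%, 5.58%, 5.82% and 11.4%. CCGGAAG, a general ETS motif that shares the letters GGAAG with the PU.1 kind, was in 9.19%, 6.80%, 21.1% and 9.12%. The median GC content of the windows was 55.7% for genes called higher, 62.8% for genes called lower and 61.3% for genes not called, and its part in these shares was not tested. The 3 windows from the CD44High side are shown because they hold GAGGAAGT, and that of *Cldn5* is shown beside them as a promoter of a CD44Neg gene that holds none of the 4 motifs, with every match to the motifs in capitals on whichever strand it lies.
Ctss (chr3:95526536-95526835, plus strand): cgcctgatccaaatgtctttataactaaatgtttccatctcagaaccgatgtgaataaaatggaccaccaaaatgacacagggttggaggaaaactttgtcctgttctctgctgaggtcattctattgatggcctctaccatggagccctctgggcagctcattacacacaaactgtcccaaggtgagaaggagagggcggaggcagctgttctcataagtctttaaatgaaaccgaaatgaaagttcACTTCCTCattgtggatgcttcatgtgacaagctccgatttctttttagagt
C1qc (chr4:136892865-136893164, minus strand): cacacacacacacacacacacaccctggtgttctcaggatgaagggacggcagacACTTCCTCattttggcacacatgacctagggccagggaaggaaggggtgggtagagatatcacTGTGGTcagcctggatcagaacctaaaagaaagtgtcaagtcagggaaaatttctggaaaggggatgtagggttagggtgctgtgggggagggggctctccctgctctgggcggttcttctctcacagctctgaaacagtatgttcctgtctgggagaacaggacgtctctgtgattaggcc
Hpgds (chr6:65144681-65144980, minus strand): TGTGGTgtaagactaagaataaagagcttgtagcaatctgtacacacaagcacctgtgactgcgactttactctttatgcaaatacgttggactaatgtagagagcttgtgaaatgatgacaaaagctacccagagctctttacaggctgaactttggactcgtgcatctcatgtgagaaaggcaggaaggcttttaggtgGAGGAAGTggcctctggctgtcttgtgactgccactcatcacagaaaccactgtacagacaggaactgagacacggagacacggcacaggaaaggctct
Cldn5 (chr16:18776597-18776896, plus strand): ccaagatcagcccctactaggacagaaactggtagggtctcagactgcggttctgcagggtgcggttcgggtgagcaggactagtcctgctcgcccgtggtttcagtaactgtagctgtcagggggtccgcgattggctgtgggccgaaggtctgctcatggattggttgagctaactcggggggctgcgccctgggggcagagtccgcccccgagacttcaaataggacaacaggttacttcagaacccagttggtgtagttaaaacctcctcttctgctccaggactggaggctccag
The match in *Ctss* reads ACTTCCTC, the reverse complement of GAGGAAGT. The windows of *C1qc* and *Hpgds* hold 1 match to GAGGAAGT and 1 to TGTGGT each. A match is a description of these letters and not a site of binding.

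Endothelial identity genes were lower in CD44High almost throughout. Of the 30 genes of the endothelial list, all were tested, 28 were called lower and none was called higher, beside 5.32% of all genes called lower, and the median log2 fold change of the list was -7.80 (-7.60 with genes at 0 in a whole group set to their bound). *Sox18*, *Sox7* and *Sox17* encode related transcription factors of the endothelium, and *Sox18* was at 659, 428 and 506 normalized CPM in CD44Neg and at 0 in all CD44High libraries (at least 805-fold lower, adjusted p = 7.33e-05). *Kdr*, which encodes the main receptor for vascular endothelial growth factor, was at 433, 481 and 620.4 in CD44Neg and at 0, 0.477 and 0 in CD44High (log2 fold change -11.55, SE 0.64, adjusted p = 6.93e-05). *Clec14a*, a gene of the endothelial surface, was at 156, 311 and 374 in CD44Neg and at 0 in all CD44High libraries (at least 425-fold lower, adjusted p = 0.000175). In none of these genes did the groups overlap. The CD44High libraries kept small amounts of a few members: *Egfl7*, the gene of a secreted vessel protein, was at 53.0, 48.2 and 110.1 in CD44High and at 1223, 1016 and 1086 in CD44Neg (log2 fold change -3.98, SE 0.36, adjusted p = 0.000222). *Icam2*, an adhesion gene that leukocytes share, was at 36.9, 44.4 and 39.7 against 591, 518 and 663 (log2 fold change -3.87, SE 0.24, adjusted p = 7.33e-05). The 2 members not called were *Adgrl4*, at 5.14, 207 and 2.38 in CD44High and 316, 367 and 289 in CD44Neg (log2 fold change -2.18, SE 1.28, adjusted p = 0.287), and *Erg*, at 2.02, 7.87 and 0.238 and 25.4, 29.9 and 34.4 (log2 fold change -3.15, SE 0.94, adjusted p = 0.0481). Most of the *Adgrl4* signal in CD44High came from replicate 21, which also held the largest summed level of the list in CD44High, at 693 normalized CPM against 239 in replicate 20 and 285 in replicate 22. The sum was 13978 to 15511 in CD44Neg. In pooled cells of this kind, fewer cells with a transcript and less of it per cell cannot be told apart. *Adgrl4* was called without CD44High replicate 21 (adjusted p = 0.000225). *Adgrl4* was called with limma voom (adjusted p = 0.00706). *Erg* was called with DESeq2's Wald test and in the fit of all 22 libraries (adjusted p = 0.00326 to 0.00389).

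The genes that set arteries apart from veins were lower in CD44High on both sides of that division. Of 19 genes, 17 were tested and 13 were called lower (5.32% of all genes), none higher, with a median log2 fold change of -5.42 (-5.26 at the bound). On the arterial side, *Dll4*, the gene of a Notch ligand of arterial endothelium, was at 65.6, 107 and 75.5 normalized CPM in CD44Neg and at 0 in all CD44High libraries (at least 125-fold lower, adjusted p = 0.000228). *Gja5*, which encodes connexin 40, was at 44.5, 98.5 and 89.6 in CD44Neg and at 0 in CD44High (at least 118-fold lower, adjusted p = 0.000397). On the venous side, *Nr2f2*, which encodes the factor COUP-TFII, was at 82.9, 106 and 109 in CD44Neg and at 6.603, 0.239 and 0.475 in CD44High (log2 fold change -5.26, SE 0.93, adjusted p = 0.00529). *Ephb4* and *Aplnr*, receptor genes of veins, were also called lower, so CD44Neg held transcripts of both vessel types and CD44High little of either. The Notch receptor genes *Notch1* and *Notch4* were called lower as well, and *Notch1* remained at 4.40, 16.5 and 14.98 in CD44High against 155, 144 and 164 in CD44Neg (log2 fold change -3.70, SE 0.48, adjusted p = 0.00123). The Notch ligand gene *Jag1* overlapped between the groups, at 26.6, 103 and 4.52 in CD44High and 31.1, 42.4 and 93.5 in CD44Neg (log2 fold change -0.32, SE 0.89, adjusted p = 0.851). *Hey2*, *Jag2* and *Efnb2* were not called, with adjusted p = 0.725, 0.103 and 0.118. Without CD44Neg replicate 1 or 2, 8 or 7 of these genes were called lower. The call for *Nr2f2* was lost without any 1 of the CD44Neg libraries (adjusted p = 0.0235 to 0.0293). *Efnb2* was called without CD44High replicate 20 (adjusted p = 0.000487).

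Genes of cell junctions and of the matrix under the endothelium followed. Of 22 junction genes, 1 of which had no row in the table under its symbol, 19 were tested, and 13 were called lower (5.32% of all genes) and none higher, with a median log2 fold change of -4.05. The ubiquitous adaptors of adherens junctions changed least among the called members: *Ctnna1*, which encodes alpha-catenin, was at 65.8, 68.7 and 61.8 normalized CPM in CD44High and 465, 450.3 and 391 in CD44Neg (log2 fold change -2.73, SE 0.22, adjusted p = 0.000153). *Ctnnb1*, which encodes beta-catenin, was at 214, 208 and 87.2 and 456, 712 and 627 (log2 fold change -1.82, SE 0.36, adjusted p = 0.00931). *Tjp1*, which encodes the tight junction scaffold ZO-1, fell further, to 2.57, 3.10 and 0 from 169, 214 and 171 (log2 fold change -6.57, SE 0.74, adjusted p = 0.000606). Their groups did not overlap, but CD44High kept measurable alpha-catenin and beta-catenin transcripts in every library. *Jam3*, *Jam2*, *Nectin3* (listed as *Pvrl3*), *Pard3* and *Cdh2* were among the members not called, with log2 fold changes from -4.38 to -1.44. Of 20 basement membrane and matrix genes 19 were tested, and 11 were called lower and none higher, with a median log2 fold change of -4.21. *Lama4*, which encodes the laminin chain of endothelial basement membranes, was at 226, 276 and 299.6 in CD44Neg and 0, 0.239 and 0 in CD44High (log2 fold change -11.42, SE 0.59, adjusted p = 6.93e-05). *Col4a1*, the gene of a type IV collagen chain, was at 596, 789.5 and 794 in CD44Neg and 14.5, 8.59 and 0 in CD44High (log2 fold change -6.53, SE 0.98, adjusted p = 0.00237). *Fn1*, which encodes fibronectin, was not called, at 201, 214 and 378 in CD44Neg and 108, 53.9 and 18.3 in CD44High (log2 fold change -2.13, SE 0.58, adjusted p = 0.0334). CD44High replicate 22 held the smallest summed level of the matrix list, 84.6 normalized CPM against 367 and 344 in replicates 20 and 21 and 4744 to 5686 in CD44Neg. Without 1 of the CD44Neg libraries, 4 to 6 of the matrix genes were called lower, and without CD44Neg replicate 2 or 3, 8 of the junction genes. Without CD44High replicate 22, 1 matrix gene was called higher. The call for *Ctnnb1* was lost without CD44High replicate 20 or 21 or any 1 of the CD44Neg libraries (adjusted p = 0.0127 to 0.0509). The call for *Col4a1* was lost without any 1 of the CD44Neg libraries (adjusted p = 0.0125 to 0.0165). *Cdh2* was called without CD44High replicate 21 (adjusted p = 0.00155). *Fn1* was called without CD44High replicate 20 (adjusted p = 0.00977). *Cdh2* was called with DESeq2's Wald test and with limma voom (adjusted p = 0.00331 to 0.00778). *Fn1* was called with DESeq2's Wald test, with limma voom and in the fit of all 22 libraries (adjusted p = 0.000840 to 0.00870).

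The transcription factors of blood formation were split. Of 30 genes 24 were tested, 10 were called higher, beside 4.33% of all genes called higher, 1 was called lower and 13 were not called, and the median log2 fold change was 3.05. *Runx1*, the gene required for the endothelial to haematopoietic transition, was at 50.6, 119 and 71.8 normalized CPM in CD44High and at 0 in CD44Neg (at least 140.4-fold higher, adjusted p = 0.000382). *Spi1*, which encodes PU.1, the factor of myeloid and lymphoid cells, was at 60.2, 174 and 218 and 0 (at least 263-fold higher, adjusted p = 0.000514). *Ikzf1*, which encodes Ikaros, was at 89.7, 73.0 and 120.3 and 0 (at least 165-fold higher, adjusted p = 0.000186). All 3 were present in each CD44High library and absent at this depth from each CD44Neg library. *Gfi1b* was at 59.1, 27.0 and 81.1 in CD44High and 0 in CD44Neg (at least 97.4-fold higher, adjusted p = 0.000754), whereas its paralogue *Gfi1* had 1 count in 1 CD44High library and none elsewhere and was not tested. *Klf1*, the erythroid Krüppel-like factor, was at 151, 20.99 and 132 and 0 (at least 177-fold higher, adjusted p = 0.00195), and *Gata1*, of the erythroid and megakaryocyte lineages, at 77.2, 34.1 and 70.6 and 0 (at least 106-fold higher, adjusted p = 0.000510). Replicate 21 held the least *Klf1*, *Gata1* and *Gfi1b* of the CD44High libraries. The call for *Klf1* was lost without CD44Neg replicate 2 (adjusted p = 0.0114). *Klf1* was not called with limma voom (adjusted p = 0.0185).

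A group of factors that haemogenic endothelium and blood share was found in both populations. *Lmo2*, which encodes an adaptor of the haematopoietic factor complex, was at 199, 128 and 161 normalized CPM in CD44High and 42.8, 65.0 and 62.1 in CD44Neg (log2 fold change 1.52, SE 0.30, adjusted p = 0.00810). *Tal1*, *Lyl1*, *Fli1*, *Gata2*, *Etv6*, *Cbfb*, *Cbfa2t3* and *Hhex* were not called, with log2 fold changes between -0.82 and 0.84. *Fli1*, for example, was at 87.3, 165 and 100.3 in CD44High and 167, 183 and 146 in CD44Neg, and its groups overlapped (log2 fold change -0.49, SE 0.30, adjusted p = 0.301). *Myb*, needed for definitive blood formation, was at 84.0, 53.0 and 47.1 and 0, 1.09 and 5.41, which missed the threshold (log2 fold change 4.73, SE 0.99, adjusted p = 0.0111) although the groups did not overlap. *Irf8*, *Zeb2* and *Meis1* were higher in every CD44High library than in any CD44Neg library and were not called (adjusted p = 0.0869, 0.0125 and 0.0158). *Mecom*, which encodes the transcription factor Evi1, was the member called lower, at 0, 1.43 and 0 in CD44High and 38.7, 104 and 79.5 in CD44Neg (log2 fold change -7.30, SE 1.04, adjusted p = 0.00178). Without CD44Neg replicate 2, 6 members of the list were called higher, and without CD44High replicate 21, 2 were called lower. In 8 of the 11 alternatives that kept all 6 libraries, 2 members were called lower. The call for *Lmo2* was lost without any 1 of the 6 libraries (adjusted p = 0.0110 to 0.0446). The call for *Mecom* was lost without CD44Neg replicate 2 or 3 (adjusted p = 0.0111 to 0.0169). *Myb* and *Zeb2* were called without CD44Neg replicate 3 (adjusted p = 0.00661 and 0.00423). *Myb* was called in 5 of the 10 alternatives that kept all 6 libraries (adjusted p = 9.19e-07 to 0.00948). *Zeb2* was called in 7 of the 10 alternatives that kept all 6 libraries (adjusted p = 1.47e-05 to 0.00991). *Meis1* was called in 4 of the 10 alternatives that kept all 6 libraries (adjusted p = 6.51e-05 to 0.00677).

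The HSPC label was set against 18 genes used to mark or maintain haematopoietic stem cells, 14 of which were tested. Of these, 2 were called higher and 3 lower, beside 4.33% and 5.32% of all genes tested, and the median log2 fold change was -0.98. *Ly6e*, a surface protein gene of the Ly6 family, was at 278, 483 and 484 normalized CPM in CD44High and 10.5, 6.52 and 3.51 in CD44Neg (log2 fold change 5.94, SE 0.48, adjusted p = 0.000148). *Adgrg1*, which encodes the adhesion receptor GPR56, was at 109, 185 and 59.0 and 1.96, 5.61 and 0 (log2 fold change 5.55, SE 1.04, adjusted p = 0.00675). *Cd34*, shared by endothelium and progenitors, was at 99.2, 238 and 67.3 in CD44High and 1135, 899 and 878 in CD44Neg (log2 fold change -2.85, SE 0.45, adjusted p = 0.00301). *Ly6a*, which encodes Sca-1, had 0 counts in all 6 libraries. *Procr*, which encodes the endothelial protein C receptor, was at 1.65, 1.91 and 0 in CD44High and 20.3, 24.8 and 12.1 in CD44Neg (log2 fold change -3.97, SE 1.04, adjusted p = 0.0289). *Hoxa9* was at 0, 2.15 and 0 and 24.2, 41.6 and 54.6 (log2 fold change -5.83, SE 1.20, adjusted p = 0.0103), and *Hlf*, *Thy1* and *Slamf1* were not tested, with at most 9.35 normalized CPM in any library. Outside this list, the blood genes *Ptprc*, *Runx1* and *Spi1* were present in all libraries that carry this label, which is not a test of the label. Without CD44Neg replicate 2 or 3, no gene of this list was called lower, and without CD44Neg replicate 1, 1 gene was. Alternatives that kept all 6 libraries gave 1 to 5 called higher and 3 to 6 called lower. The call for *Adgrg1* was lost without CD44High replicate 20 or 21 or CD44Neg replicate 1 or 2 (adjusted p = 0.0135 to 0.0455). The call for *Cd34* was lost without CD44High replicate 20 or any 1 of the CD44Neg libraries (adjusted p = 0.0108 to 0.0179). *Hoxa9* was called without CD44High replicate 21 (adjusted p = 0.00153). *Adgrg1* was not called with limma voom (adjusted p = 0.0114). *Procr* was called with DESeq2's Wald test, in the fit of all 9 E11 libraries and in the fit of all 22 libraries (adjusted p = 0.000321 to 0.00548). *Hoxa9* was called in 7 of the 10 alternatives that kept all 6 libraries (adjusted p = 5.33e-07 to 0.00871).

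**Figure D3:**
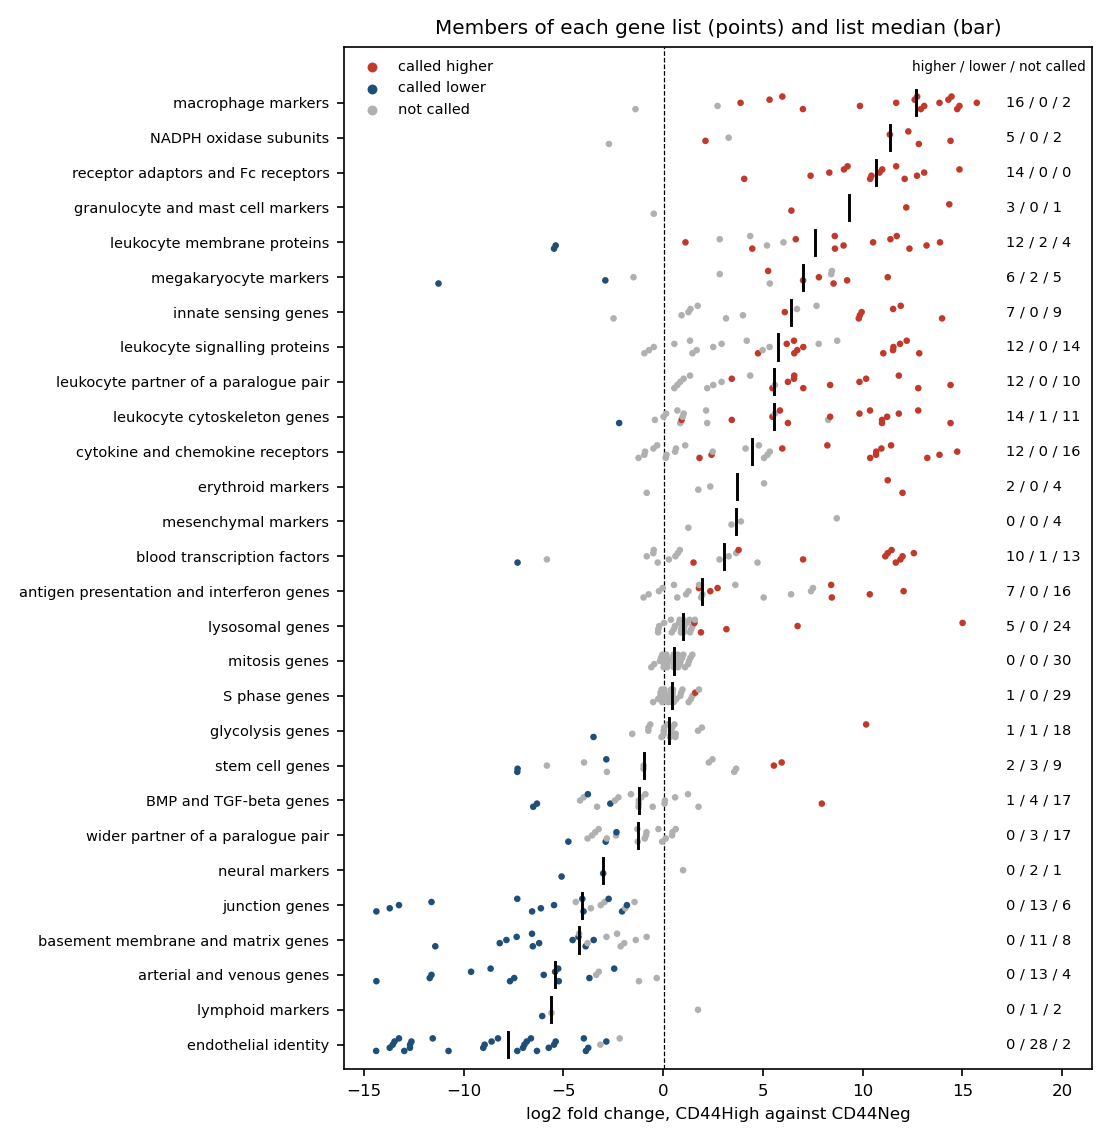
Each point is a tested member of a gene list at its log2 fold change for CD44High against CD44Neg (positive is higher in CD44High), coloured by its call. Bars are list medians, the dashed line is the median of all genes tested at 0.03, and the counts at the right give members called higher, called lower and not called. Fold changes of genes with 0 counts in a whole group depend on the prior count of the fit. The list of endothelial identity lies lowest at -7.80 (-7.60 at the bound) and that of macrophage markers highest at 12.7 (8.14 at the bound).

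Membrane proteins of leukocytes moved the other way. Of 20 genes 18 were tested, 12 were called higher (4.33% of all genes) and 2 lower (5.32% of all genes), with a median log2 fold change of 7.63 (6.34 with genes at 0 in a whole group set to their bound). Beside *Ptprc*, *Cd52*, the gene of a small glycoprotein of leukocytes, was at 157, 217 and 328 normalized CPM in CD44High and 0 in CD44Neg (at least 409-fold higher, adjusted p = 0.000145). *Selplg*, which encodes the ligand of P-selectin, was at 51.4, 100.2 and 97.5 and 0 (at least 145-fold higher, adjusted p = 0.000299). *Cd48*, a surface gene of most blood cells that long-term stem cells lack, was at 71.7, 90.2 and 37.8 and 0 (at least 116-fold higher, adjusted p = 0.000476). The CD44High libraries all lay above the CD44Neg libraries in these genes. The members called lower were *Pecam1*, which encodes CD31, at 9.72, 41.0 and 21.6 in CD44High and 1012, 1043 and 1145 in CD44Neg (log2 fold change -5.47, SE 0.51, adjusted p = 0.000259), and *Cd93*, at 2.20, 28.9 and 8.32 and 507, 551 and 577 (log2 fold change -5.39, SE 0.79, adjusted p = 0.00213), both also genes of the endothelium. *Itga2b*, which encodes the early blood marker CD41, was at 14.5, 30.3 and 16.4 and 0, 0.362 and 7.90 and was not called (log2 fold change 2.84, SE 1.30, adjusted p = 0.174). *Cd37*, *Cd84* and *Itgb2* were not called either (adjusted p = 0.0105, 0.0204 and 0.0645), and *Spn* and *Ly9* did not pass the filter. Without any 1 of the CD44Neg libraries, 1 member was called lower. The call for *Cd93* was lost without any 1 of the CD44Neg libraries (adjusted p = 0.0106 to 0.0134). *Cd37* and *Itgb2* were called without CD44Neg replicate 1 (adjusted p = 0.00382 and 0.00363). *Cd84* was called without CD44Neg replicate 3 (adjusted p = 0.00215). *Cd37* was called in 5 of the 10 alternatives that kept all 6 libraries (adjusted p = 4.09e-07 to 0.00924). *Cd84* was called with no filter on low counts (adjusted p = 0.00482). *Itgb2* was called with limma voom (adjusted p = 0.00816).

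Adaptors that turn receptor binding into signals were listed with Fc receptors and related lectins. Of 18 genes 14 were tested, and all 14 were called higher in CD44High (4.33% of all genes). Of these 14, 9 had 0 counts in every CD44Neg library and passed the filter through CD44High alone. *Tyrobp*, which encodes the adaptor DAP12, was at 379, 843 and 979 normalized CPM in CD44High and 0 in CD44Neg (at least 1282-fold higher, adjusted p = 0.000139). *Fcer1g*, which encodes the common gamma chain of Fc receptors, was at 421, 843 and 673 and 2.69, 1.27 and 0 (log2 fold change 9.07, SE 0.85, adjusted p = 0.000272). *Fcgr1*, the gene of the high-affinity receptor for immunoglobulin G, was at 105, 209 and 333 and 0 (at least 377-fold higher, adjusted p = 0.000318). Replicate 20 was the lowest CD44High library in all 3. The lectin genes *Clec4a1*, *Clec4a2* and *Clec4a3* are similar copies between which reads may have been shared, and they were at 75.6, 159.8 and 92.5, at 227, 196 and 79.6 and at 87.1, 38.9 and 24.01 in CD44High and at 0 in CD44Neg. Replicate 20 was the highest CD44High library for *Clec4a2* and *Clec4a3*, in contrast to the adaptors.

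Of 28 genes of leukocyte signalling 26 were tested, 12 were called higher (4.33% of all genes) and none lower, with a median log2 fold change of 5.77 (4.87 at the bound). *Btk*, the tyrosine kinase gene of B cells and myeloid cells, was at 72.6, 63.7 and 85.8 normalized CPM in CD44High and 0 in CD44Neg (at least 129-fold higher, adjusted p = 0.000204). *Fyb*, which encodes an adaptor of integrin activation, was at 122, 200.4 and 222 and 0 (at least 317-fold higher, adjusted p = 0.000139). *Sla*, which encodes the Src-like adaptor protein, was at 80.0, 141 and 131 and 0 (at least 205-fold higher, adjusted p = 0.000175). All CD44High libraries held these transcripts. The kinase genes *Syk* and *Lyn* were found in both populations and were not called (adjusted p = 0.260 and 0.182), with *Lyn* at 122, 191 and 173 in CD44High and 103, 102 and 123 in CD44Neg. At an adjusted p under 0.05, 20 of them were called higher, and 8 to 11 were without any 1 of the 6 libraries.

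Genes of chemokine and cytokine receptors were higher in CD44High in part. Of 31 genes 28 were tested, 12 were called higher (4.33% of all genes) and none lower, with a median log2 fold change of 4.47 (3.92 at the bound). *Cx3cr1*, the receptor gene for fractalkine, was at 362, 835 and 837 normalized CPM in CD44High and 0 in CD44Neg (at least 1186-fold higher, adjusted p = 0.000134). *Csf1r*, which encodes the receptor of macrophage colony-stimulating factor, was at 147, 465 and 489 and 0 (at least 641-fold higher, adjusted p = 0.000319). *Ccr2*, whose receptor guides monocytes, was at 59.8, 42.5 and 102 and 0 (at least 119-fold higher, adjusted p = 0.000480). Replicate 20 held the least *Cx3cr1* and *Csf1r* of the CD44High libraries. *Flt3*, the receptor gene of multipotent and lymphoid progenitors, was low at 5.14, 7.16 and 9.98 and 0 (at least 12.98-fold higher, adjusted p = 0.00994). The erythropoietin receptor gene *Epor* was not called (adjusted p = 0.0408), nor was *Csf3r*, of the granulocyte factor, at 35.2, 79.7 and 71.6 in CD44High and 0, 5.61 and 0.878 in CD44Neg (log2 fold change 4.80, SE 1.04, adjusted p = 0.0128). The interferon receptor genes differed within each receptor: *Ifnar2* was called higher with log2 fold change 2.43, SE 0.27, adjusted p = 0.000608, whereas *Ifnar1* was at -0.94 on the log2 scale (SE 0.33, adjusted p = 0.0839), and *Ifngr1* was called higher with log2 fold change 1.82, SE 0.22, adjusted p = 0.000815, whereas *Ifngr2* was at 0.64 on the log2 scale (SE 0.33, adjusted p = 0.216). The difference between the chains was not tested. The call for *Flt3* was lost without any 1 of the 6 libraries (adjusted p = 0.0268 to 0.0350). The call for *Ifngr1* was lost without CD44Neg replicate 2 (adjusted p = 0.0105). *Csf3r* was called without CD44Neg replicate 2 (adjusted p = 0.00787). *Flt3* was not called in 4 of the 9 alternatives that kept all 6 libraries (adjusted p = 0.01002 to 0.0322). *Epor* was called with DESeq2's Wald test (adjusted p = 0.000971). *Csf3r* was called with no filter on low counts, with DESeq2's Wald test and with thinned counts (adjusted p = 2.49e-06 to 0.00924).

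Genes for sensing and killing microbes were present in CD44High. Of 21 innate sensing genes 16 were tested and 7 were called higher (4.33% of all genes), none lower. *Ly86*, the gene of the partner of the receptor CD180, was at 345, 306 and 552 normalized CPM in CD44High and 0 in CD44Neg (at least 701-fold higher, adjusted p = 0.000113), and *Cd180* itself was also called. *Tlr7*, the receptor gene for single-stranded RNA, was at 50.3, 99.7 and 69.4 and 0 (at least 128-fold higher, adjusted p = 0.000319). *Casp1*, which encodes the protease of the inflammasome, was at 104, 105 and 76.5 and 0 (at least 166-fold higher, adjusted p = 0.000153), while the inflammatory cytokine *Il1b* was at most 2.62 in any library and was not tested. The inflammasome adaptor gene *Pycard* was called with log2 fold change 6.10, SE 0.66, adjusted p = 0.000498. *Tlr2* and *Tlr4* were not called (adjusted p = 0.0131 and 0.0362), and *Tlr4* was at 88.6, 136 and 7.85 in CD44High, low in replicate 22 and overlapping with CD44Neg. With DESeq2's Wald test, 12 of these genes were called higher. *Tlr2* was called without CD44Neg replicate 3 (adjusted p = 0.00986). *Tlr4* was called without CD44High replicate 22 (adjusted p = 0.00114). *Tlr7* was not called in the fit of all 22 libraries (adjusted p = 0.0145). *Tlr2* was called in 4 of the 10 alternatives that kept all 6 libraries (adjusted p = 9.04e-06 to 0.00861). *Tlr4* was called with DESeq2's Wald test (adjusted p = 0.000614).

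The phagocyte NADPH oxidase, which makes superoxide, had subunit genes that differed unequally between the populations. Of 10 genes 7 were tested and 5 were called higher (4.33% of all genes). *Cybb*, which encodes the catalytic subunit gp91phox, was at 179.7, 133 and 223 normalized CPM in CD44High and 0 in CD44Neg (at least 312-fold higher, adjusted p = 0.000124). Its partner *Cyba*, which encodes p22phox and also serves other oxidases, was at 182, 288 and 318 and 57.3, 60.8 and 62.8 (log2 fold change 2.12, SE 0.28, adjusted p = 0.00133). The cytosolic subunit genes *Ncf1* and *Ncf4* were at 0 in CD44Neg and at 49.7, 121 and 202 and at 58.0, 49.6 and 88.2 in CD44High. *Nox4*, the oxidase gene found in endothelium, was at 2.38, 5.01 and 0 in CD44High and 20.3, 17.9 and 10.8 in CD44Neg (log2 fold change -2.72, SE 1.12, adjusted p = 0.131). Every CD44High library held *Cybb*, *Ncf1* and *Ncf4*. The call for *Cyba* was lost without any 1 of the CD44Neg libraries (adjusted p = 0.0103 to 0.0134).

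Genes of the actin machinery of leukocytes were higher in CD44High in part. Of 26 genes of the leukocyte cytoskeleton, all tested, 14 were called higher (4.33% of all genes) and 1, *Cnn2*, lower (5.32% of all genes). *Rac2*, the leukocyte Rac GTPase gene that also serves the oxidase, was at 343, 584 and 688 normalized CPM in CD44High and 0 in CD44Neg (at least 941-fold higher, adjusted p = 0.000113). *Coro1a*, which encodes coronin 1A, was at 284, 549 and 816 and 8.32, 3.98 and 9.22 (log2 fold change 6.25, SE 0.53, adjusted p = 0.000175). *Tmsb4x*, which encodes the actin-binding peptide thymosin beta-4, was at 9033, 15173 and 13083 and 6889.8, 6422 and 6315 (log2 fold change 0.93, SE 0.19, adjusted p = 0.00986), the smallest called difference of the list. *Arhgdib*, which encodes a regulator of small GTPases in blood cells, was at 853, 1051 and 1000.4 and 62.9, 109.9 and 94.5 (log2 fold change 3.44, SE 0.27, adjusted p = 0.000139), so that its transcript was found in both populations. The actin regulators *Wipf1*, *Cotl1* and *Arpc1b* overlapped between the groups. Without any 1 of the CD44Neg libraries, no member of the list was called lower. The call for *Tmsb4x* was lost without CD44High replicate 21 or 22 or any 1 of the CD44Neg libraries (adjusted p = 0.0157 to 0.0594). *Tmsb4x* was not called with upper-quartile scaling or under the stricter filter (adjusted p = 0.0109 to 0.0152).

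For 20 leukocyte genes of these and related functions, a paralogue that is used more widely was tested as well. In all 20 pairs the leukocyte partner had the larger log2 fold change, on a choice of pairs made for that contrast. With the 5 leukocyte partners at 0 counts in every CD44Neg library set to their bound, the difference was 1.64 to 12.2, with a median of 6.27 on the log2 scale. In 11 pairs the leukocyte partner was called higher (4.33% of all genes), in 10 of them with the wider partner not called. *Rac1* was at 502, 585 and 576 normalized CPM in CD44High and 379.7, 645 and 699 in CD44Neg, with overlapping groups (log2 fold change -0.05, SE 0.26, adjusted p = 0.920), beside *Rac2* at 0 in CD44Neg. *Dock2* and *Dock1*, which encode exchange factors of Rac, were called in opposite directions: *Dock2* was at 11.7, 25.3 and 31.1 in CD44High and 0 in CD44Neg (at least 39.7-fold higher, adjusted p = 0.00216), and *Dock1* at 20.7, 12.2 and 23.3 in CD44High and 138, 123 and 154 in CD44Neg (log2 fold change -2.88, SE 0.34, adjusted p = 0.000697). *Plcg1*, for the phospholipase C acting below growth factor receptors, was called lower (log2 fold change -4.75, SE 0.73, adjusted p = 0.00269), whereas *Plcg2* of blood cells missed the threshold (log2 fold change 2.93, SE 1.19, adjusted p = 0.126). *Fermt3* and *Fermt2*, which encode the kindlins of blood and of other cells, had log2 fold changes of 8.37 (SE 0.69, adjusted p = 0.000153) and -3.79 (SE 1.11, adjusted p = 0.0445). The integrin genes of the pairs were not called: *Itgb2* was at 42.0, 31.7 and 25.9 in CD44High and 5.14, 0 and 0 in CD44Neg, and *Itgb1* at 459.8, 248 and 231 and 633, 792 and 875. The 3 wider partners called lower (5.32% of all genes) became 8 with DESeq2's Wald test, 6 without CD44High replicate 20, 5 without CD44High replicate 22 and 1 without any 1 of the CD44Neg libraries. The call for *Plcg1* was lost without any 1 of the CD44Neg libraries (adjusted p = 0.0141 to 0.0152). *Fermt2* was called without CD44High replicate 22 (adjusted p = 0.00384). *Itgb2* was called without CD44Neg replicate 1 (adjusted p = 0.00363). *Fermt2* was called with limma voom and in the fit of all 22 libraries (adjusted p = 0.00186 to 0.00866). *Itgb2* was called with limma voom (adjusted p = 0.00816).

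**Figure D4:**
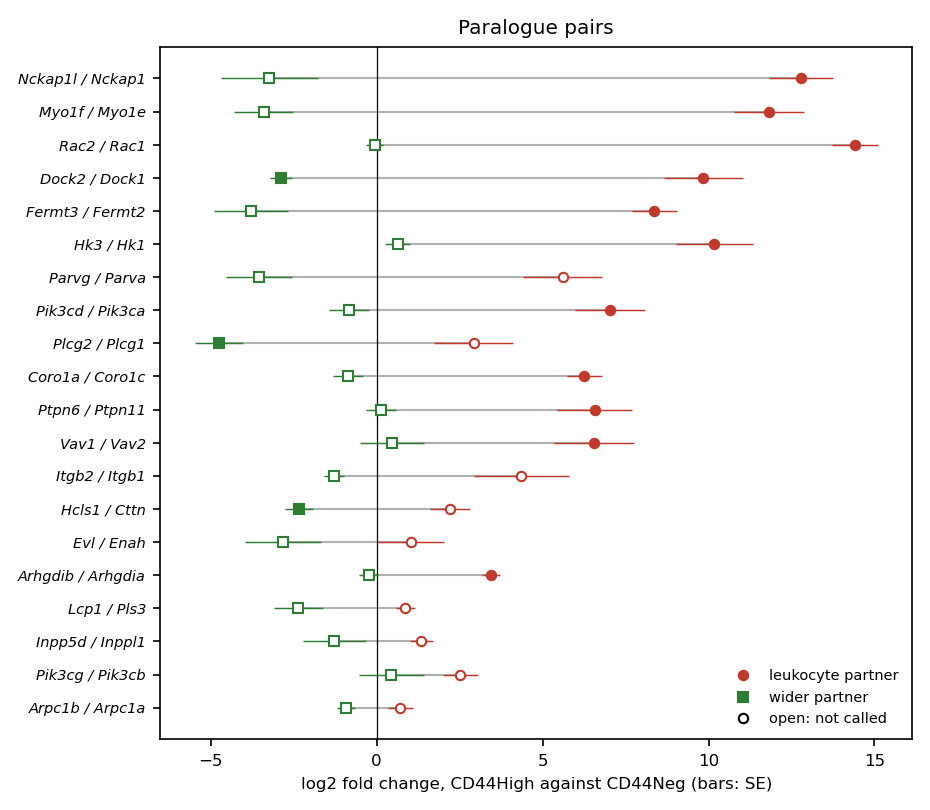
Each line joins the 2 members of a paralogue pair at their log2 fold changes for CD44High against CD44Neg, with the leukocyte partner as a circle and the wider partner as a square. Bars are the SE worked out from the F statistic, which can understate the error for genes near 0 counts in a group. Filled symbols were called. All 20 circles lie to the right of their squares, and for the 5 pairs in which the leukocyte partner had 0 counts in every CD44Neg library the distance depends on the prior count of the fit.

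Genes of antigen presentation and of the interferon response were taken as 1 list. Of 31 genes 23 were tested, 7 were called higher (4.33% of all genes) and none lower, with a median log2 fold change of 1.97. *B2m*, which encodes the light chain of class I molecules, was at 1996, 2651 and 2054 normalized CPM in CD44High and 672, 566 and 695 in CD44Neg (log2 fold change 1.79, SE 0.19, adjusted p = 0.000501). *Psmb8*, an immunoproteasome gene, was at 52.6, 114 and 149.5 and 0 (at least 184-fold higher, adjusted p = 0.000405). *Cd74*, which encodes the invariant chain of class II molecules, was low at 7.70, 7.16 and 11.2 and 0 (at least 15.2-fold higher, adjusted p = 0.00793), and the class II genes *H2-Aa* and *H2-Eb1* were below the filter, and the interferon-induced genes *Isg15*, *Ifit1* and *Ifit3* were at most 5.25 normalized CPM in any library. *Ifitm1* was at 441, 102 and 15.2 in CD44High, highest in replicate 20, and was not called (log2 fold change 6.41, SE 1.46, adjusted p = 0.0159). *Irf7*, an interferon-induced regulator, was at 4.22, 9.54 and 11.6 and 0 (at least 14.8-fold higher, adjusted p = 0.00977). With DESeq2's Wald test 12 genes of this list were called, and without 1 of the CD44Neg libraries 2 or 3. The calls for *Cd74* and *Irf7* were lost without any 1 of the 6 libraries (adjusted p = 0.0250 to 0.0269 and 0.0195 to 0.0355). *Ifitm1* was called without CD44High replicate 22 (adjusted p = 0.00388). *Cd74* was not called in the fit of all 9 E11 libraries or in the fit of all 22 libraries (adjusted p = 0.0166 to 0.0283). *Irf7* was not called in the fit of all 9 E11 libraries, in the fit of all 22 libraries or with thinned counts (adjusted p = 0.0106 to 0.0752). *Ifitm1* was called in 4 of the 10 alternatives that kept all 6 libraries (adjusted p = 0.000560 to 0.00801).

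Most lysosomal genes were found in both populations. Of 30 genes 29 were tested and 5, *Ctss*, *Ctsc*, *Lgmn*, *Ctsb* and *Gusb*, were called higher (4.33% of all genes), none lower, with a median log2 fold change of 1.02. *Ctsc*, which encodes the protease that activates granule enzymes, was at 1030.4, 775 and 1587 normalized CPM in CD44High and 7.58, 12.5 and 11.4 in CD44Neg (log2 fold change 6.74, SE 0.39, adjusted p = 6.93e-05). *Lgmn*, which encodes legumain, was at 334, 656 and 695 and 72.2, 68.4 and 46.4 (log2 fold change 3.17, SE 0.35, adjusted p = 0.000546). *Ctsb*, which encodes cathepsin B, was at 974, 2242 and 1880.5 and 393, 499 and 479 (log2 fold change 1.89, SE 0.31, adjusted p = 0.00342). In these genes all CD44High libraries lay above all CD44Neg libraries, whereas *Ctsl*, which encodes cathepsin L, overlapped at 357, 411 and 220.1 and 368, 333 and 478 (log2 fold change -0.25, SE 0.28, adjusted p = 0.597). With DESeq2's Wald test 14 lysosomal genes were called higher, 9 were without CD44High replicate 20, and 3 were without CD44High replicate 21 or any 1 of the CD44Neg libraries. The call for *Ctsb* was lost without CD44High replicate 21 or any 1 of the CD44Neg libraries (adjusted p = 0.0110 to 0.0279).

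Markers of differentiated blood lineages differed from list to list, and those of macrophages were called most often. Of 20 macrophage markers 18 were tested and 16 were called higher (4.33% of all genes), none lower, with a median log2 fold change of 12.7 (8.14 at the bound), and 12 to 15 were called without any 1 of the 6 libraries. Of the 18 tested, 12 had 0 counts in every CD44Neg library and passed the filter through CD44High alone. The summed level of the list was 4890, 9767 and 9018 normalized CPM in CD44High and 136 to 223 in CD44Neg. *Lyz2*, which encodes lysozyme, was at 1819, 583 and 1619 in CD44High and 0 in CD44Neg (at least 2343-fold higher, adjusted p = 0.000158). *C1qb*, for a chain of complement C1q, was at 241, 719.9 and 711 and 0 (at least 974-fold higher, adjusted p = 0.000216), and *C1qa* and *C1qc* were called as well. *Adgre1*, which encodes F4/80, was at 139, 225 and 142 and 0 (at least 295-fold higher, adjusted p = 0.000134). Every CD44High library held these markers, and replicate 20 held the least *C1qb* but the most *Lyz2*. *Mrc1*, the mannose receptor gene, was at 209, 599 and 317 in CD44High and 11.5, 9.60 and 6.88 in CD44Neg (log2 fold change 5.34, SE 0.48, adjusted p = 0.000216). *Timd4* had at most 0.239 normalized CPM in any library and *Cd163* had 0 counts in all 6, both genes of resident macrophages, and *Mertk* was not called (adjusted p = 0.0818). The leukocyte gene groups described above and these markers were higher in the same 3 libraries, and the share of macrophages among the sorted CD44High cells in these differences was not tested.

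Granulocyte and mast cell markers differed between the CD44High libraries. Of 20 genes 4 were tested and 3 were called higher (4.33% of all genes), and the summed level was 8588, 1657 and 2208 normalized CPM in CD44High and 20.3 to 40.8 in CD44Neg. *Mpo*, which encodes myeloperoxidase, was at 563, 806 and 176 in CD44High and 0 in CD44Neg (at least 900.3-fold higher, adjusted p = 0.000431). *Prtn3*, which encodes proteinase 3, was at 142, 75.4 and 129 and 0 (at least 202-fold higher, adjusted p = 0.000191). *Srgn*, the gene of the granule proteoglycan serglycin, was at 1103, 693 and 152 and 8.07, 10.7 and 3.95 (log2 fold change 6.43, SE 0.79, adjusted p = 0.000875). These genes of early myeloid granules were in all CD44High libraries. The calprotectin gene *S100a8* was at 5852, 0 and 1677 and *S100a9* at 666, 0 and 66.1 in CD44High, that is, abundant in replicate 20, present in replicate 22 and at 0 in replicate 21, and both were at 0 in CD44Neg and not tested. *Cpa3* and *Ms4a3*, of mast cell and granulocyte progenitors, were highest in replicate 20, at 134, 36.7 and 0.475 and at 91.0, 4.77 and 0. *Elane* was at most 1.43 in any library, *Camp* at most 0.734, and *Ngp* and *Ctsg* had 0 counts in all 6. Without CD44High replicate 21, 5 genes of this list were called higher. With no filter on low counts, 6 were called higher. *Srgn* was not called with limma voom (adjusted p = 0.0111).

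Of 20 erythroid markers, 18 had a row in the table, 6 were tested and 2, *Klf1* and *Gata1*, were called higher (4.33% of all genes). No difference could be read from the adult globin genes: *Hba-a1*, *Hba-a2*, *Hbb-b1*, *Hbb-b2*, *Hbb-bs* and *Hbb-bt* are near-identical copies whose reads the counting may not have assigned, and they had 0 counts in all 22 libraries of the study. The embryonic *Hbb-y* was at 3.12, 15.5 and 0 in CD44High and 2.69, 14.5 and 15.7 in CD44Neg (log2 fold change -0.82, SE 1.34, adjusted p = 0.731). The red cell surface gene *Rhag* was at 193, 0 and 68.9 in CD44High and at 0 in CD44Neg, with replicate 20 highest and replicate 21 lowest, and did not pass the filter. Without CD44High replicate 21, 4 erythroid markers were called higher. Of 17 megakaryocyte markers 13 were tested, 6 were called higher and 2, *Vwf* and *F2r*, which endothelium also uses, lower (5.32% of all genes). *Pf4*, which encodes platelet factor 4, was at 74.6, 175 and 31.6 in CD44High and 2.94, 2.35 and 2.05 in CD44Neg (log2 fold change 5.26, SE 0.69, adjusted p = 0.00123), and *Treml1*, of platelet granules, at 19.3, 14.3 and 10.7 and 0 (at least 25.8-fold higher, adjusted p = 0.00341). *Vwf*, which encodes von Willebrand factor, was at 0 in CD44High and 51.4, 37.8 and 93.2 in CD44Neg (at least 92.2-fold lower, adjusted p = 0.000602). Without CD44Neg replicate 1, 1 megakaryocyte marker was called higher, and without CD44Neg replicate 2 or 3, 3 were, while 1 was called lower without any 1 of the CD44Neg libraries. Among 18 lymphoid markers, of which 15 had a row, 3 were tested, none was called higher and *Lck* was called lower, at 0, 2.86 and 0 in CD44High and 82.2, 69.2 and 36.1 in CD44Neg (log2 fold change -6.06, SE 1.17, adjusted p = 0.00777). *Cd3e*, *Pax5* and *Dntt* had 0 counts in all 6 libraries. Erythroid markers called higher numbered 4 with no filter and 1 with limma voom, and lymphoid markers called lower numbered 0 to 2 over the alternatives that kept all 6 libraries. The call for *Pf4* was lost without any 1 of the CD44Neg libraries (adjusted p = 0.0103 to 0.0131). The call for *Treml1* was lost without CD44High replicate 20 or 21 or any 1 of the CD44Neg libraries (adjusted p = 0.0109 to 0.0151). The call for *Lck* was lost without CD44High replicate 20 or 22 or any 1 of the CD44Neg libraries (adjusted p = 0.0106 to 0.0437). *Pf4* was not called with limma voom (adjusted p = 0.0204). *Treml1* was not called in the fit of all 22 libraries (adjusted p = 0.0245). *Lck* was not called in the fit of all 9 E11 libraries (adjusted p = 0.0170).

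Markers of tissues around the aorta were uneven. Of 12 mesenchymal markers 4 were tested and none was called by edgeR, where 1 had an unadjusted p under 0.05, or by DESeq2 or limma voom, although 4 were called higher without CD44High replicate 22 and 4 without the filter on low counts. Their summed level was 989, 614 and 0.238 normalized CPM in CD44High replicates 20, 21 and 22 and 16.1, 11.4 and 0.439 in CD44Neg. *Acta2*, which encodes smooth muscle actin, was at 554, 402 and 0 in CD44High and 0.245, 1.99 and 0 in CD44Neg (log2 fold change 8.704, SE 2.12, adjusted p = 0.0212), and *Postn*, which encodes periostin, was at 138, 19.3 and 0 and 0. These transcripts were thus in CD44High replicates 20 and 21 and not detected in replicate 22. Scaled over all 22 libraries, *Acta2* was at 116 to 265 normalized CPM in CD44LowKitPos, *Postn* at 5.95 to 39.3 and *Tagln* at 15.1 to 29.8. The other mesenchymal markers were at 0 to 8.48 there. Of 12 neural markers 3 were tested and 2, *Nes* and *Stmn2*, were called lower (5.32% of all genes). *Stmn2*, of growing neurons, was at 1.65, 5.25 and 0 in CD44High and 74.6, 99.0 and 61.9 in CD44Neg (log2 fold change -5.09, SE 0.92, adjusted p = 0.00565), and *Nes*, which endothelium also expresses, at 2.20, 3.34 and 6.89 and 27.6, 40.4 and 31.9 (log2 fold change -3.01, SE 0.58, adjusted p = 0.00811). The defining neural genes *Sox10*, *Elavl3* and *Neurod1* had 0 counts in all 6 libraries. Scaled over all 22 libraries, *Stmn2* was at most 716 normalized CPM in the 19 libraries outside CD44High, and at 0.913 to 112 in CD44LowKitPos. In the fit of all 9 E11 libraries, 1 neural marker was called lower. The call for *Stmn2* was lost without CD44High replicate 20 or any 1 of the CD44Neg libraries (adjusted p = 0.0178 to 0.0373). The call for *Nes* was lost without CD44High replicate 20 or 21 or any 1 of the CD44Neg libraries (adjusted p = 0.0173 to 0.0445). *Acta2* was called without CD44High replicate 22 (adjusted p = 0.000246). *Nes* was not called in the fit of all 9 E11 libraries (adjusted p = 0.0102). *Acta2* was called with no filter on low counts, in the fit of all 9 E11 libraries and in the fit of all 22 libraries (adjusted p = 0.00327 to 0.00967).

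**Figure D5:**
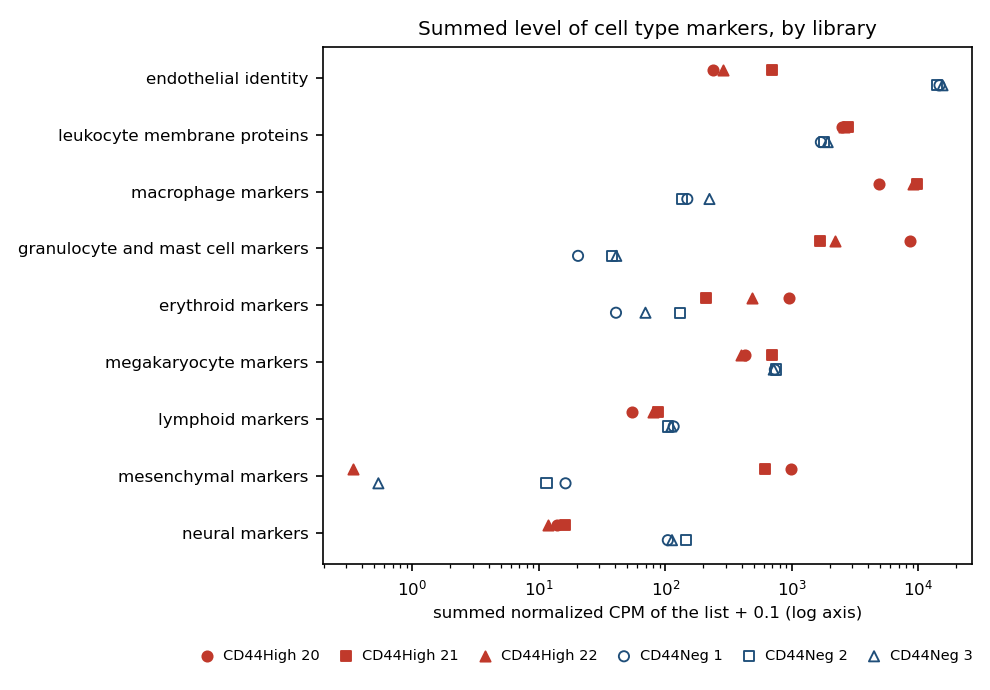
Summed normalized CPM of each list of cell type markers is drawn on a log axis (0.1 was added) for each of the 3 CD44High libraries (red) and 3 CD44Neg libraries (blue), with a marker shape for each replicate. The macrophage sums of CD44High, from 4890 to 9767, lie above the CD44Neg sums of 136 to 223, whereas the mesenchymal sums of CD44High run from 0.238 to 989.

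In the lists of the cell cycle and of glycolysis, the share of genes called was near or under the 4.33% higher and 5.32% lower of all genes tested. Of 30 S phase genes, all tested, 1 was called higher and none lower, and their median log2 fold change was 0.42. The called gene was *Pola1*, which encodes the catalytic subunit of DNA polymerase alpha, at 155, 144 and 103 normalized CPM in CD44High and 44.3, 41.1 and 46.5 in CD44Neg (log2 fold change 1.61, SE 0.27, adjusted p = 0.00445). *Pcna*, the replication clamp gene, was at 738, 511 and 318 and 295, 252 and 293 and was not called (log2 fold change 0.90, SE 0.31, adjusted p = 0.0753). None of the 30 mitosis genes was called by edgeR, where 10 had an unadjusted p under 0.05, beside 32.01% of all genes tested, and 2 were called with DESeq2's Wald test and 0 with limma voom, and their median log2 fold change was 0.53. *Mki67*, the gene of the proliferation marker Ki-67, was at 242, 359 and 255 and 197, 130.4 and 113 (log2 fold change 0.96, SE 0.29, adjusted p = 0.0533), with every CD44High library above every CD44Neg library. CD44Neg replicate 1 held 7286 normalized CPM over the mitosis list against 4405 and 3521 in the other CD44Neg libraries, and the CD44High libraries held 6708 to 7981. With DESeq2's Wald test 6 S phase genes were called, without CD44High replicates 20 or 22 2 or 3 were, and without any 1 of the CD44Neg libraries or CD44High replicate 21 none was. Without CD44High replicate 22, 1 mitosis gene was called. The call for *Pola1* was lost without CD44High replicate 21 or any 1 of the CD44Neg libraries (adjusted p = 0.0169 to 0.0309). *Pcna* was called without CD44High replicate 22 (adjusted p = 0.00909).

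Among 20 tested glycolysis genes, of 22, 1 was called in each direction. *Hk3*, the hexokinase gene of leukocytes, was at 14.5, 28.4 and 43.0 normalized CPM in CD44High and 0 in CD44Neg (at least 50.1-fold higher, adjusted p = 0.00167), while *Hk1* was at 0.63 on the log2 scale (SE 0.39, adjusted p = 0.309). *Slc2a1*, the glucose transporter gene of endothelium, was at 89.3, 33.6 and 142 in CD44High and 786, 1080.3 and 1115 in CD44Neg (log2 fold change -3.49, SE 0.48, adjusted p = 0.00156). *Gapdh* and *Pgk1* overlapped between the groups, with log2 fold changes of 0.22 (SE 0.20) and 0.02 (SE 0.23). Without CD44High replicate 22, 3 glycolysis genes were called lower. With DESeq2's Wald test 2 glycolysis genes were called higher. The call for *Slc2a1* was lost without CD44Neg replicate 2 (adjusted p = 0.0118).

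Genes of the BMP and TGF-beta pathways, which act on arterial endothelium, were called in part. Of 27 genes 22 were tested, 4 were called lower and 1 higher, beside 5.32% and 4.33% of all genes tested, with a median log2 fold change of -1.23. *Eng*, which encodes the co-receptor endoglin, was at 0.550, 10.3 and 10.9 normalized CPM in CD44High and 580.3, 436 and 704 in CD44Neg (log2 fold change -6.33, SE 0.83, adjusted p = 0.00120). *Acvrl1*, which encodes its partner ALK1, was at 2.75, 5.25 and 8.56 and 59.9, 101 and 65.3 (log2 fold change -3.78, SE 0.51, adjusted p = 0.00141), and the target gene *Id1* was also called lower, with log2 fold change -2.65, SE 0.51, adjusted p = 0.00782. The member called higher was the BMP receptor gene *Bmpr1a*, at 27.9, 12.9 and 23.1 in CD44High and 0, 0.181 and 0 in CD44Neg (log2 fold change 7.96, SE 1.07, adjusted p = 0.00139). The mediator genes *Smad2*, *Smad3* and *Smad4* overlapped between the groups, with log2 fold changes of 0.09, 0.07 and -0.53. Without 1 of the CD44Neg libraries 1 or 2 genes of this list were called lower. In the fit of all 22 libraries 7 were called lower. The call for *Acvrl1* was lost without CD44Neg replicate 2 (adjusted p = 0.0123). The call for *Id1* was lost without CD44High replicate 21 or 22 or any 1 of the CD44Neg libraries (adjusted p = 0.0117 to 0.0340).

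The genes that separated CD44High differed in whether they were found in the 19 other libraries of the study, given here as levels with no test because CD44High was sampled at E11 alone. Of the 16 macrophage markers called higher, 6 had 0 counts in all 19 other libraries and 7 had 0 counts in the 3 CD44LowKitPos libraries of E9.5 and E10. *C1qb* and *Adgre1* were among those at 0 in all 19, and the lysosomal gene *Ctss* was at 0 there as well. Scaled over all 22 libraries, *Spi1* reached 116 to 252 normalized CPM in CD44LowKitPos, *Rac2* 22.9 to 140 and *Mpo* 36.8 to 168. *Gfi1*, nearly absent from E11 CD44High, was at 27.7 to 42.0 in CD44LowKitPos, and *Mecom* and *Procr* were higher there as well, at 43.4 to 99.999 and 41.4 to 55.3.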

How the data were processed

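RNA of 25 sorted cells per library was amplified by SMART-Seq2 with 14 preamplification cycles and sequenced on a NextSeq 500. Per the study's methods and the submitters' processing notes, reads were clipped, aligned to mm10 with RNA STAR and counted per gene with HTSeq. Tool versions, the annotation and the strand setting of the counting are not given in the sources used here. The deposited values are raw counts per gene, which the authors did not normalize, with 4385865 to 5974244 counts per CD44High library and 3912350 to 6652450 per CD44Neg library. So few cells, with no molecular identifiers, leave rare transcripts to chance capture, and a level of 0 covers counting error only.

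Columns were matched to libraries by the sample labels. The 6 libraries were fitted with edgeR 4.0.16 in R 4.3.3, with TMM scaling, filterByExpr at its defaults (minimum count 10, minimum total 15), a prior count of 0.125, the quasi-likelihood test without covariates and Benjamini-Hochberg adjustment over all 10933 genes tested. Calls were made at an adjusted p under 0.01. The study states a level of 0.01 for a Wald test, without naming an adjustment. The procedure was run on simulated data with 200 changed genes, whose planted changes were smaller than the median over the called genes. No gene was planted at 0 in a whole group, so genes of that kind were not covered. Alternatives were DESeq2 1.42.0, limma 3.58.1 (voom), other scalings, filters, sample sets, a threshold of 0.05, thinned counts, counts without *Rn45s*, and leaving out each library.

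The comparison and its gene lists were chosen with earlier results of these data known, so lists are described by counts and medians and were not tested. Named genes are the sorting genes, within each list up to 4 called members with the largest absolute log2 fold change and non-overlapping groups, members that were not called, and over all genes the 12 widest gaps in each direction, leaving out predicted (Gm) and Rik symbols. Other genes in the text were chosen after their values were seen. Promoter windows, of 250 bases before to 50 after the start, came from RefSeq. The other 16 libraries were used as a description of levels and in 2 of the alternative fits. Some genes of the lists are counted but not reported here by name.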

Additional observations from a re-analysis of the deposited data

How the results depend on the processing

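No paired analysis was possible because the CD44High libraries carry the numbers 20 to 22 and the CD44Neg libraries 1 to 3, so the groups share no replicate number. The 1055 called genes (473 higher and 582 lower) became 2074 (984 and 1090) with the DESeq2 Wald test, which left 14 adjusted p undefined, and 2115 (1003 and 1112) at a threshold of 0.05. In the fit of all 22 libraries, 898 genes were called lower, 549 higher and 1447 in all. The other 8 alternatives gave 906 to 1301 calls. Leaving out 1 library gave 436 to 1058 calls, 224 to 492 higher and 212 to 566 lower, with the 3 lowest counts (482, 436 and 498) all without a CD44Neg library, and the cause was not tested. No called gene changed sign under any alternative.

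Of 187 named genes, 7 that were not called reversed in direction in some fits, with the cause not tested. Leaving out 1 library put the log2 fold change of *Kit* between -0.40 and 0.44, of *Hey2* between -7.48 and 0.47, of *Jag1* between -1.83 and 0.28, of *Pgk1* between -0.11 and 0.14, of *Rac1* between -0.28 and 0.11, of *Smad2* between -0.084 and 0.18 and of *Smad3* between -0.53 and 0.38. *Smad3* was also at -0.072 with limma voom. With 3 libraries of 25 cells a group, a gene with wide spread could miss the threshold even at a large fold, and a gene not called is not shown to be equal.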

Other observations

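Several gene families outside the lists above differed between E11 CD44High and CD44Neg. They were chosen after their values were seen, and are described with no test of the family. Of 6 tested genes of the Ms4a family, which encode membrane proteins that are common in myeloid cells, all were called higher in CD44High by edgeR at an adjusted p under 0.01, against 4.33% of all genes tested that were called higher and 5.32% called lower. *Ms4a6b* was at 333, 443 and 264 normalized CPM in CD44High and 0 in CD44Neg (at least 606-fold higher, adjusted p = 0.000106), and *Ms4a6c* at 174, 275 and 193 and 0 (at least 374-fold higher, adjusted p = 0.000116). These are similar copies, between which reads may have been shared. All tested members of the family except *Ms4a6d* had 0 counts in every CD44Neg library and passed the filter through CD44High alone. Of 9 tested purinergic receptor genes, for receptors of extracellular nucleotides, 6 were called higher. *P2ry12*, for the ADP receptor of platelets and microglia, was at 40.9, 71.8 and 85.3 in CD44High and 0 in CD44Neg (at least 115-fold higher, adjusted p = 0.000393). *P2ry13* and *P2ry6* were at 0 in CD44Neg as well, and at 57.0, 147 and 75.6 and at 29.0, 86.8 and 107 in CD44High.

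Chemokine genes were found beside the chemokine receptors. Of 9 tested, 5 (*Ccl3*, *Ccl9*, *Ccl6*, *Ccl2* and *Ccl24*) were called higher (4.33% of all genes) and 1, *Cx3cl1*, lower (5.32% of all genes). *Ccl3* was at 152, 195 and 441 normalized CPM in CD44High and 0 in CD44Neg (at least 459-fold higher, adjusted p = 0.000300). *Cx3cl1*, which encodes fractalkine, the ligand of the receptor that CD44High cells transcribed, was at 13.7, 20.8 and 25.5 in CD44Neg and 0.183, 0 and 0 in CD44High (log2 fold change -7.72, SE 1.04, adjusted p = 0.00141). *Ccl4* was at 6.603, 30.5 and 350.2, *Cxcl2* at 4.04, 1.43 and 169 and *Cxcl10* at 0.734, 0.954 and 262 in CD44High, each highest in replicate 22. *Ccl4* was not called, and *Cxcl2* and *Cxcl10* did not pass the filter on low counts. Of 10 tested genes of eicosanoid synthesis, 5 were called higher (4.33% of all genes), among them the leukotriene genes *Alox5* and *Alox5ap*. *Alox5* was at 19.99, 38.9 and 25.7 in CD44High and 0, 0.181 and 0 in CD44Neg (log2 fold change 8.36, SE 0.98, adjusted p = 0.000724). *Alox5ap* was at 193, 227 and 177 and 3.43, 11.9 and 27.4 (log2 fold change 3.78, SE 0.63, adjusted p = 0.00399). The call for *Cx3cl1* was lost without CD44Neg replicate 2 or 3 (adjusted p = 0.0104). The call for *Alox5ap* was lost without CD44Neg replicate 2 (adjusted p = 0.0336).

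Lipid and iron genes moved in part. Of 18 tested genes of lipid handling, 6 were called higher (4.33% of all genes), 3 lower (5.32% of all genes) and 9 were not called. Of 11 tested ferritin and iron genes, 3 were called higher, none lower and 8 were not called. *Apoe*, for the lipid carrier apolipoprotein E, was at 798, 3324 and 2281 normalized CPM in CD44High and 126, 107 and 201 in CD44Neg (log2 fold change 3.88, SE 0.52, adjusted p = 0.00136), while *Fabp4*, a fatty acid binding protein gene of capillaries, was at 0 in CD44High and 9.05, 11.9 and 31.2 in CD44Neg (at least 26.4-fold lower, adjusted p = 0.00479). *Fth1*, for the ferritin heavy chain, was at 2162, 3123 and 4549 and 721, 725 and 681 (log2 fold change 2.21, SE 0.27, adjusted p = 0.000815). The haem oxygenase gene *Hmox1* was at 44.9, 869 and 938 in CD44High and 83.4, 78.9 and 87.8 in CD44Neg, high in replicates 21 and 22, and was not called (log2 fold change 2.89, SE 0.86, adjusted p = 0.0464). The call for *Apoe* was lost without CD44Neg replicate 1 or 2 (adjusted p = 0.0134 to 0.0141). The call for *Fabp4* was lost without any 1 of the CD44Neg libraries (adjusted p = 0.0153 to 0.0295). The call for *Fth1* was lost without CD44Neg replicate 2 (adjusted p = 0.0102). *Hmox1* was called without CD44High replicate 20 (adjusted p = 8.48e-05). *Fabp4* was not called in the fit of all 22 libraries (adjusted p = 0.0154). *Hmox1* was called in the fit of all 22 libraries (adjusted p = 0.00511).

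On the CD44Neg side, 4 of 18 tested imprinted genes, which are transcribed from 1 parental copy, were called lower in CD44High (5.32% of all genes) and none higher. *H19*, a growth-related noncoding RNA gene, was at 23.7, 27.0 and 3.09 normalized CPM in CD44High and 502, 563 and 712 in CD44Neg (log2 fold change -5.04, SE 0.68, adjusted p = 0.00142), and *Gnas* at 199.7, 215 and 250.3 and 995, 1324 and 1448 (log2 fold change -2.50, SE 0.22, adjusted p = 0.000216). *Mest* was at 99.96, 4.29 and 0.238 in CD44High and 6349, 6229 and 6148 in CD44Neg and was not called (log2 fold change -7.47, SE 1.55, adjusted p = 0.0107), with CD44High replicates far apart. Of 10 tested Hox genes, 3 were called lower, among them *Hoxa5* and *Hoxa10*, both at 0 in CD44High, with *Hoxa5* at 9.05, 15.6 and 20.3 in CD44Neg (at least 22.7-fold lower, adjusted p = 0.00397). Of 15 tested genes of coagulation and fibrinolysis, 6 were called lower and 1, *F13a1*, higher. *Thbd*, for the anticoagulant receptor thrombomodulin, was at 4.40, 18.8 and 3.57 in CD44High and 121, 65.7 and 111 in CD44Neg (log2 fold change -3.48, SE 0.66, adjusted p = 0.00740), whereas *F13a1*, for the clot-linking factor XIII chain, which macrophages and megakaryocytes make, was at 129, 322 and 295 in CD44High and 0 in CD44Neg (at least 435-fold higher, adjusted p = 0.000204). Of 6 tested *Gimap* genes 3 were called lower, with *Gimap6* at 20.5, 31.5 and 25.7 in CD44High and 689, 453 and 536 in CD44Neg (log2 fold change -4.43, SE 0.30, adjusted p = 0.000106). The call for *Hoxa5* was lost without any 1 of the CD44Neg libraries (adjusted p = 0.0152 to 0.0253). The call for *Thbd* was lost without CD44High replicate 20 or 22 or any 1 of the CD44Neg libraries (adjusted p = 0.0124 to 0.0358). *Mest* was called without CD44High replicate 20 or 22 (adjusted p = 0.000152 to 0.00487). *Mest* was called in 6 of the 10 alternatives that kept all 6 libraries (adjusted p = 4.78e-05 to 0.00741).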
